A study of Mus musculus with 6 samples.

Results

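The 10 genes studied here restrain signals from the T cell receptor (TCR) and the mitogen-activated protein kinases (MAPK), and they were read in the RNA of activated mouse T cells. They were chosen by symbol, and their Ensembl identifiers were found without the version number. All 10 were among the 52550 genes of the gene count table, and they had 31 of the 131146 entries of the transcript count table. The genes were Dusp2, Dusp4, Dusp5, Dusp6, Dusp10, Spry1, Spry2, Cblb, Dgka and Dgkz.

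RNA sequencing was performed on wild-type (WT) mouse splenic CD3+ T cells activated with antibodies to CD3 and CD28 for 24 h. In 3 samples the cells were activated without further addition (TCR alone), and in 3 samples DMGV was present at 100 ng/ml (TCR+DMGV). DMGV, dimethylguanidino valeric acid, is a metabolite of the methylated arginines ADMA and SDMA. The comparison asked how the added preparation changed gene expression in activated T cells. The labels name it DMGV, whereas the study's text and legend for the sequencing name LNY1, a factor purified from fibroblast medium. The dose and time in the legend are the same. In its other cell cultures the study gives LNY1 in ng/ml and DMGV in µM. Which of the preparations was used is not settled here, and DMGV below is the name in the labels. The mice were male and female and 6 to 8 weeks old by the general methods, which list C57BL among several strains without naming the strain of these samples. The labels call the samples biological replicates but do not say which mouse gave which sample, and no unactivated cells were analysed here. The summed counts were 37758725, 41593014 and 40327431 in TCR alone replicates 1 to 3, and 43587243, 43718867 and 40492457 in TCR+DMGV replicates 1 to 3.

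A pair of libraries, 1 in each group, stood apart from the rest on the first principal component. On the first principal component, which held 32.2% of the variance, TCR alone replicates 1 to 3 scored -34.9, -24.5 and 42.1, and TCR+DMGV replicates 1 to 3 scored 42.9, -15.0 and -10.5. On this component TCR alone replicate 3 and TCR+DMGV replicate 1 thus lay together, away from their own groups. On the second, with 19.2% of the variance, TCR alone replicates 1 and 2 lay furthest apart, at 34.5 and -40.1. On the third, with 17.4%, the groups lay apart. There TCR alone replicates 1 to 3 scored -27.1, -16.2 and -15.7, and TCR+DMGV replicates 1 to 3 scored 0.62, 20.4 and 37.99. The differences of the 10 genes are given with and without TCR alone replicate 3 and TCR+DMGV replicate 1. Among 14786 genes tested with edgeR's quasi-likelihood test, 2 passed an adjusted p of 0.05, and without these libraries 12 did. The pair, named here after their values were seen, were Slc39a9, a zinc transporter, lower with DMGV (log2 fold change -1.37), and Ahcyl2, higher with DMGV (log2 fold change 0.94).

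A T cell that is stimulated through its receptor switches on its own brakes. The kinase ERK, at the end of the Ras cascade, induces dual-specificity phosphatases that remove phosphates from ERK, p38 and JNK, and Sprouty proteins that act further up the cascade. Diacylglycerol kinases consume the diacylglycerol that recruits activators of Ras and protein kinase C, and Cbl-b, a ubiquitin ligase, dampens signals close to the receptor and makes T cells depend on CD28.

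The coding sequences show which families these genes form. The phosphatases share a catalytic signature of histidine, cysteine, 5 residues and arginine, in which the cysteine attacks the phosphate. Its 24 bases are printed for each of the 5 genes, 5′ to 3′, with the cysteine codon in capitals.
Dusp2: cacTGCcaagctggcatctctcgc
Dusp4: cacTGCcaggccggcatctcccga
Dusp5: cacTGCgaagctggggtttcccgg
Dusp6: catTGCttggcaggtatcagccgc
Dusp10: cacTGCcaggccggcgtgtcccga
The 5 stretches had the same base at 12 of 24 positions. Dusp4 and Dusp10 were the closest pair, with 22 of 24 bases identical, and Dusp5 and Dusp6 the most distant, with 13. Each stretch lies in the last exon of its transcript. On GRCm38 the Dusp2 stretch is at chr2:127337616-127337639 in exon 4, Dusp4 at chr8:34818433-34818456 in exon 4, Dusp5 at chr19:53540951-53540974 in exon 4, Dusp6 at chr10:99266027-99266050 in exon 3 and Dusp10 at chr1:184074293-184074316 in exon 4, all on the plus strand.

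The Sprouty proteins share a short stretch around a tyrosine near their start, which is phosphorylated upon stimulation and binds Cbl. Its 21 bases are printed with the tyrosine codon in capitals.
Spry1: aatgaaTACacagagggacct
Spry2: aatgagTACacagagggccct
The 2 genes were identical at 19 of 21 bases. The stretch is in the last exon of each gene, at chr3:37642760-37642780 on the plus strand for Spry1 and at chr14:105893574-105893594 on the minus strand for Spry2. In the diacylglycerol kinases the glycine-rich motif of the catalytic domain is printed, with the aspartate codon in capitals.
Dgka: ggtggaGATggc
Dgkz: gggggtGATggc
They were identical at 10 of 12 bases. The motif is in exon 16 of 24 of Dgka, at chr10:128728284-128728295, and in exon 12 of 31 of Dgkz, at chr2:91939756-91939767, both on the minus strand. These sequences and positions come from the GENCODE M21 annotation of GRCm38, since the deposited tables hold no coordinates.

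Most of these genes were abundant at 24 h. Levels of different genes were set side by side by the deposited gene FPKM, fragments scaled to length and library size. By this measure Cblb came first, with a mean of 74.6 FPKM over the 6 samples (71.1 to 78.0). Dusp5 followed with 60.7 FPKM (56.0 to 65.0) and Dusp2 with 57.8 FPKM (49.0 to 67.2). Cblb lay above Dusp5 in every sample, whereas the ranges of Dusp5 and Dusp2 overlapped. The kinases Dgka (42.4 FPKM, 37.9 to 47.5) and Dgkz (38.7 FPKM, 36.0 to 42.7) came next, with Spry1 (34.9 FPKM, 30.3 to 38.6) and Dusp4 (29.0 FPKM, 25.3 to 30.8). Each of these 4 overlapped the range of its neighbour, and by gene FPKM Dgka lay wholly below Dusp2. The main transcript of Dgka, Dgka-201, alone had 50.7 to 71.6 FPKM, which overlaps the range of Dusp2. Dusp6 (18.3 FPKM, 17.2 to 19.7) and Dusp10 (15.6 FPKM, 14.0 to 17.99) overlapped each other and lay below Dusp4. Spry2 stood at the bottom, with 1.74 FPKM (1.09 to 2.24), and the mean of Dusp10, the next gene up, was 8.96 times as high. Among the 14786 genes tested, the mean FPKM of Cblb was at percentile 95.7, that of Dusp10 at 77.9 and that of Spry2 at 34.03. The order describes gene FPKM in the 6 samples and was not tested. For a gene with several transcripts, gene FPKM can lie well below the FPKM of a single transcript. An order by transcript FPKM could therefore differ.

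**Figure D1:**
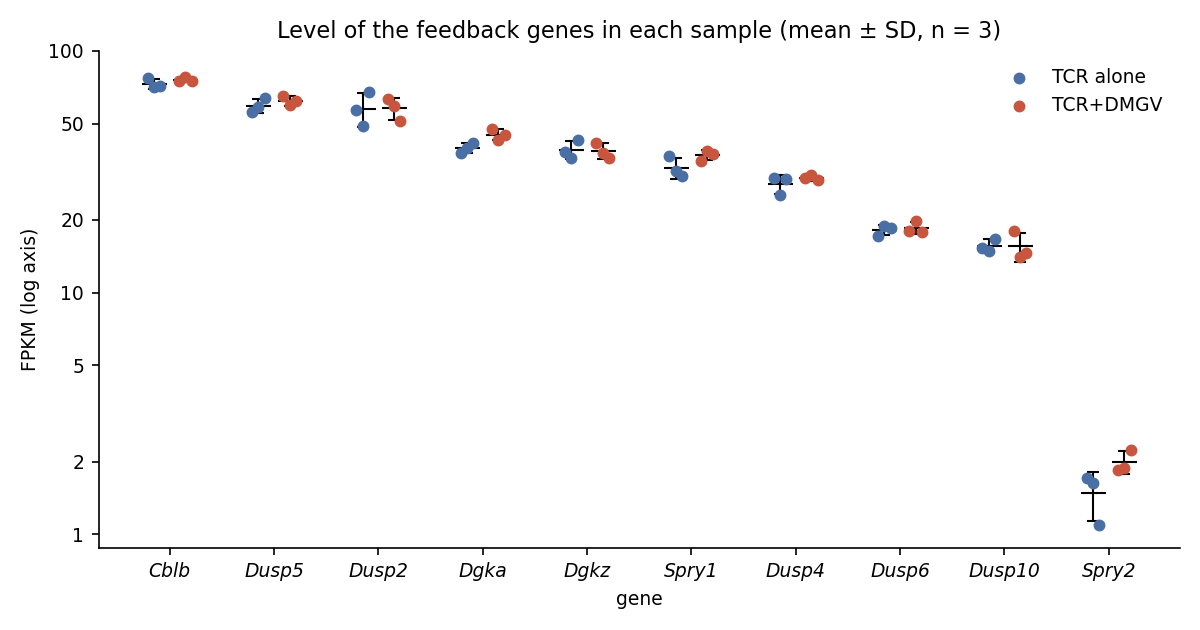
FPKM of the 10 genes in each of the 6 samples on a log axis, 1 point per sample, coloured by group, with lines for the mean and SD of each group. Cblb is highest and Spry2 lies far below the other 9 genes in both groups.

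No feedback gene passed the test between groups. In edgeR's quasi-likelihood test 0 of 10 had an adjusted p under 0.05, against 0.0135% of all genes tested (0.00676% in each direction), and each of the 10 had an adjusted p of 0.999. DESeq2 called 0 of 10 as well. At an unadjusted p under 0.05 1 of 10 was found, Dgka, against 3.19% of all genes (1.63% higher and 1.56% lower). In 2 of 10, Dgka and Spry2, the lowest TCR+DMGV sample lay above the highest TCR alone sample, against 4.92% of all genes, and in 8.86% of all genes the groups lay apart in either direction. The bulk RNA of these samples cannot tell fewer cells of a type from less RNA per cell. In what follows, levels are CPM, counts scaled to library size after TMM normalization, differences are log2 fold changes of TCR+DMGV against TCR alone, and with 3 samples a group an exact permutation test over samples cannot go below p = 0.1.

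Dusp5 (ENSMUSG00000034765.6), a nuclear phosphatase that removes phosphates from ERK, was at 154, 166 and 172 CPM in TCR alone replicates 1 to 3 and at 177, 168 and 176 CPM in TCR+DMGV replicates 1 to 3. The lowest TCR+DMGV sample was below the highest of TCR alone, so the groups overlapped. The difference was 0.08 (SE 0.07, 95% interval -0.09 to 0.25).

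Dusp6 (ENSMUSG00000019960.8), the cytoplasmic ERK phosphatase, was at 59.9, 67.8 and 63.4 CPM in TCR alone and at 62.0, 70.5 and 63.9 CPM in TCR+DMGV. The highest value of each group was that of replicate 2, and the groups overlapped. The difference was 0.04 (SE 0.09, 95% interval -0.18 to 0.25).

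Dusp4 (ENSMUSG00000031530.6), a nuclear phosphatase induced by ERK, was at 90.5, 79.3 and 88.7 CPM in TCR alone and at 89.7, 96.2 and 91.7 CPM in TCR+DMGV. TCR alone replicate 2 was the low sample, and TCR alone replicate 1 lay above TCR+DMGV replicate 1. The difference was 0.10 (SE 0.08, 95% interval -0.09 to 0.30).

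Dusp2 (ENSMUSG00000027368.6), an immediate-early phosphatase of activated lymphocytes once named PAC-1, was at 127, 112 and 148 CPM in TCR alone and at 139, 136 and 118 CPM in TCR+DMGV. Its highest values, 148 and 139 CPM, were in the libraries that stood apart on the first component. The difference was 0.02 (SE 0.12, 95% interval -0.26 to 0.30), and it was 0.09 without those libraries.

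Dusp10 (ENSMUSG00000039384.8), which acts on p38 and JNK rather than ERK, was at 51.8, 51.8 and 55.8 CPM in TCR alone and at 60.3, 48.7 and 50.8 CPM in TCR+DMGV. The same libraries were again the highest of their groups. The difference was 0.0034 (SE 0.11, 95% interval -0.25 to 0.25), it fell to -0.06 without those libraries, and its sign was negative in 11 of 17 other settings.

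Spry1 (ENSMUSG00000037211.12), a Sprouty protein that restrains Ras signalling and is induced upon TCR stimulation, was at 118, 106 and 96.7 CPM in TCR alone and at 113, 128 and 124 CPM in TCR+DMGV. TCR alone replicate 1 lay above TCR+DMGV replicate 1, so the groups overlapped. The difference was 0.19 (SE 0.10, 95% interval -0.05 to 0.42). The gene Gm42922, on the other strand over the start of Spry1, had 73 to 271 counts, and since the counting is not stated to use strand, reads there cannot be told apart.

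Spry2 (ENSMUSG00000022114.4), its lowly expressed relative, was counted only 152, 159 and 104 times in TCR alone, against 190, 194 and 214 in TCR+DMGV. In CPM these were 4.0, 3.90 and 2.51 against 4.27, 4.51 and 5.40. The groups lay apart, yet the gap between 4.0 and 4.27 CPM was small beside the spread within TCR alone, where replicate 3 was low. The difference was 0.45 (SE 0.23, 95% interval -0.09 to 0.98), the widest interval of the 10 genes, and it was 0.33 without the libraries that stood apart and 0.26 without TCR alone replicate 3 alone. For Spry2 and for Dgka the exact two-sided permutation test gave p = 0.1, the smallest it allows.

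Cblb (ENSMUSG00000022637.10), the ubiquitin ligase, which lies at chr16:52031225-52208048 on the plus strand, was at 544, 515 and 494 CPM in TCR alone and at 523, 563 and 545 CPM in TCR+DMGV. The groups overlapped, with TCR alone replicate 3 the lowest. The difference was 0.07 (SE 0.07, 95% interval -0.10 to 0.24).

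Dgka (ENSMUSG00000025357.8), the diacylglycerol kinase whose loss lets tolerant T cells respond again, was at 200.9, 216 and 217 CPM in TCR alone and at 249, 232 and 246 CPM in TCR+DMGV. All 3 TCR+DMGV samples lay above all 3 TCR alone samples. The means were 211 ± 9.08 against 242 ± 9.26 CPM (SD, n = 3 each). The difference was 0.20 (SE 0.07, adjusted p = 0.999), which is 1.15-fold with a 95% interval of 1.02 to 1.29. The unadjusted p was under 0.05, but it did not pass the threshold over all genes. Without the libraries that stood apart the difference was again 0.20 (adjusted p = 0.762), and the unadjusted p was no longer under 0.05. The unadjusted p was also over 0.05 without TCR alone replicate 1, TCR+DMGV replicate 1 or TCR+DMGV replicate 3. It was over 0.05 too with DESeq2, with library size alone and with the replicate number as a block. In these settings the difference ran from 0.15 to 0.20. The end of Dgka overlaps Pmel on the other strand, which had 60 to 131 counts.

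The 3 genes whose pattern over the 6 samples was most like that of Dgka were Bpgm, Mrpl33 and Mrpl52. Bpgm makes bisphosphoglycerate, and the others encode proteins of the mitochondrial ribosome. Their mean absolute distances from Dgka in log2 deviation were 0.0256, 0.0273 and 0.0281, and they were chosen for this likeness, so it is a description.

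Dgkz (ENSMUSG00000040479.11), the kinase that accounts for much of the diacylglycerol breakdown in T cells, was at 267, 259.5 and 293 CPM in TCR alone and at 288, 269.9 and 259.6 CPM in TCR+DMGV. Here too the highest values were in the libraries that stood apart. The difference was -0.0035 (SE 0.08, 95% interval -0.19 to 0.18), and 0.01 without those libraries.

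**Figure D2:**
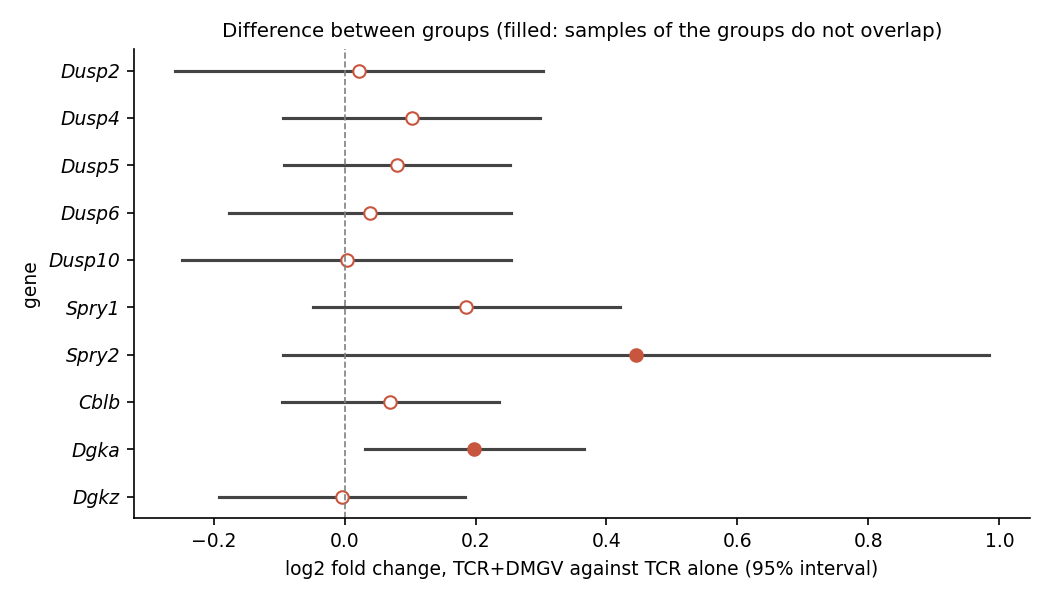
Log2 fold change of each of the 10 genes, TCR+DMGV against TCR alone, with its 95% interval from edgeR and a line at 0. The interval of Dgka alone lies wholly above 0, and that of Spry2 is the widest.

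The intervals bound how far these brakes could have moved. Leaving out Spry2, they ran from -0.26 to 0.42, which is 0.836-fold to 1.34-fold, so a doubling or a halving of the mean of any of these 9 genes lies outside them. In 9 of 10 genes the interval held 0. The fold change was above 0 in 9 of 10, against 50.6% of all genes, and Dgkz was the exception. This number was 6 without TCR alone replicate 1, 7 without TCR alone replicate 2 or TCR+DMGV replicate 1, 8 with DESeq2, and 10 without TCR alone replicate 3 or TCR+DMGV replicate 3. The 10 markers of T cells, Lck and Cd3e among them, were also all above 0, with a median of 0.13 on the log2 scale, and their part in the fold changes of the feedback genes was not tested. The median fold change of the 10 was 0.08 on the log2 scale, against 0.0024 for all genes tested. Without the libraries that stood apart the median was 0.10, and the fold changes of Dusp4, Dusp5, Dusp6, Spry1 and Cblb were 0.15, 0.10, 0.07, 0.17 and 0.07 on the same scale. In the test of all 6 samples, the fold changes of Dusp2, Dusp6, Dusp10, Cblb and Dgkz were smaller than their SE. The sign of Dusp2, Dusp6, Dusp10 and Dgkz turned in some other setting.

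The genes also varied little among the samples. The coefficient of variation over all 6 samples had a median of 7.05%, against 14.4% for all genes tested, which include many of lower level. The median log2 deviation of the 10 genes from their own means was -0.03, -0.05 and -0.02 in TCR alone replicates 1 to 3, and 0.08, 0.08 and 0.04 in TCR+DMGV replicates 1 to 3. These medians did not overlap between groups, but the genes were measured in the same libraries and are not replicates.

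**Figure D3:**
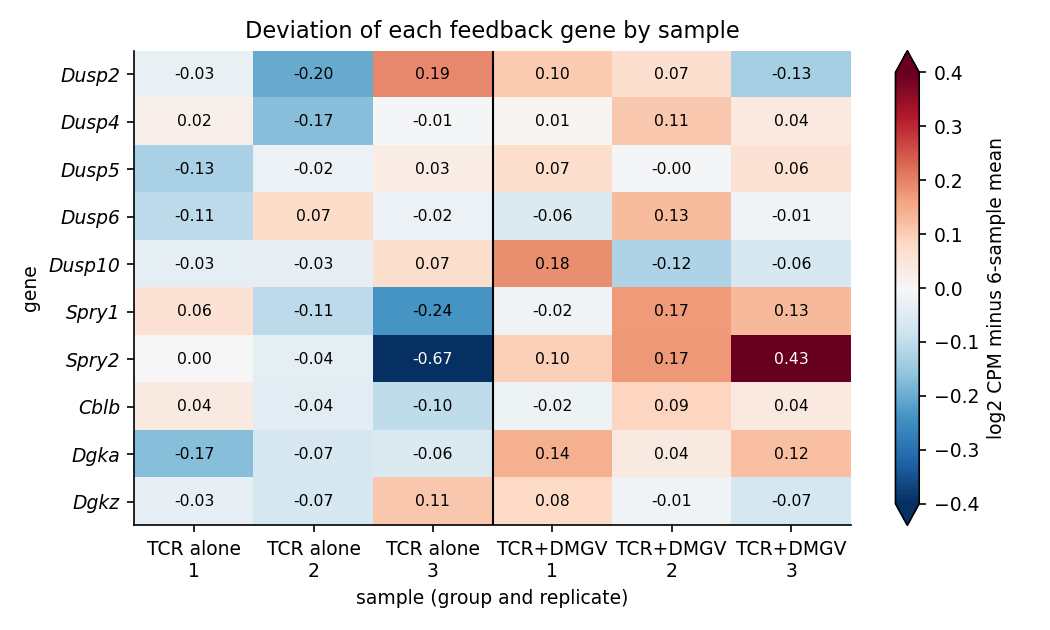
Log2 deviation of each of the 10 genes from its mean over the samples, by sample, in a colour scale. TCR alone replicate 3 is high for Dusp2 and Dgkz and low for Spry1 and Spry2, and the Dgka values are below its mean in TCR alone and above it in TCR+DMGV.

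Transcripts of these genes showed where their RNA was made of more than 1 form. Cblb, Dusp4, Dusp5 and Spry2 had 1 transcript each in the table. Dusp2-201 held 98.2% to 98.9% of the Dusp2 counts, Dusp10-201 held 99.4% to 100% and Dusp6-201 held 91.9% to 95.5%. The counts of these leading transcripts thus follow the gene counts. Their FPKM need not, since Dusp2-201 had 69.2 FPKM in TCR alone replicate 1, where the gene had 56.7. The minor form Dusp2-202, which retains an intron, took 1.497%, 1.22% and 1.11% of the Dusp2 counts in TCR alone, against 1.74%, 1.78% and 1.82% with DMGV. These shares lay apart, on 56 to 108 counts a sample, and the difference in level of Dusp2-202 was 0.51 (SE 0.29). Only Spry1, Dgka and Dgkz had a second transcript with at least 10% of the counts on average.

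**Figure D4:**
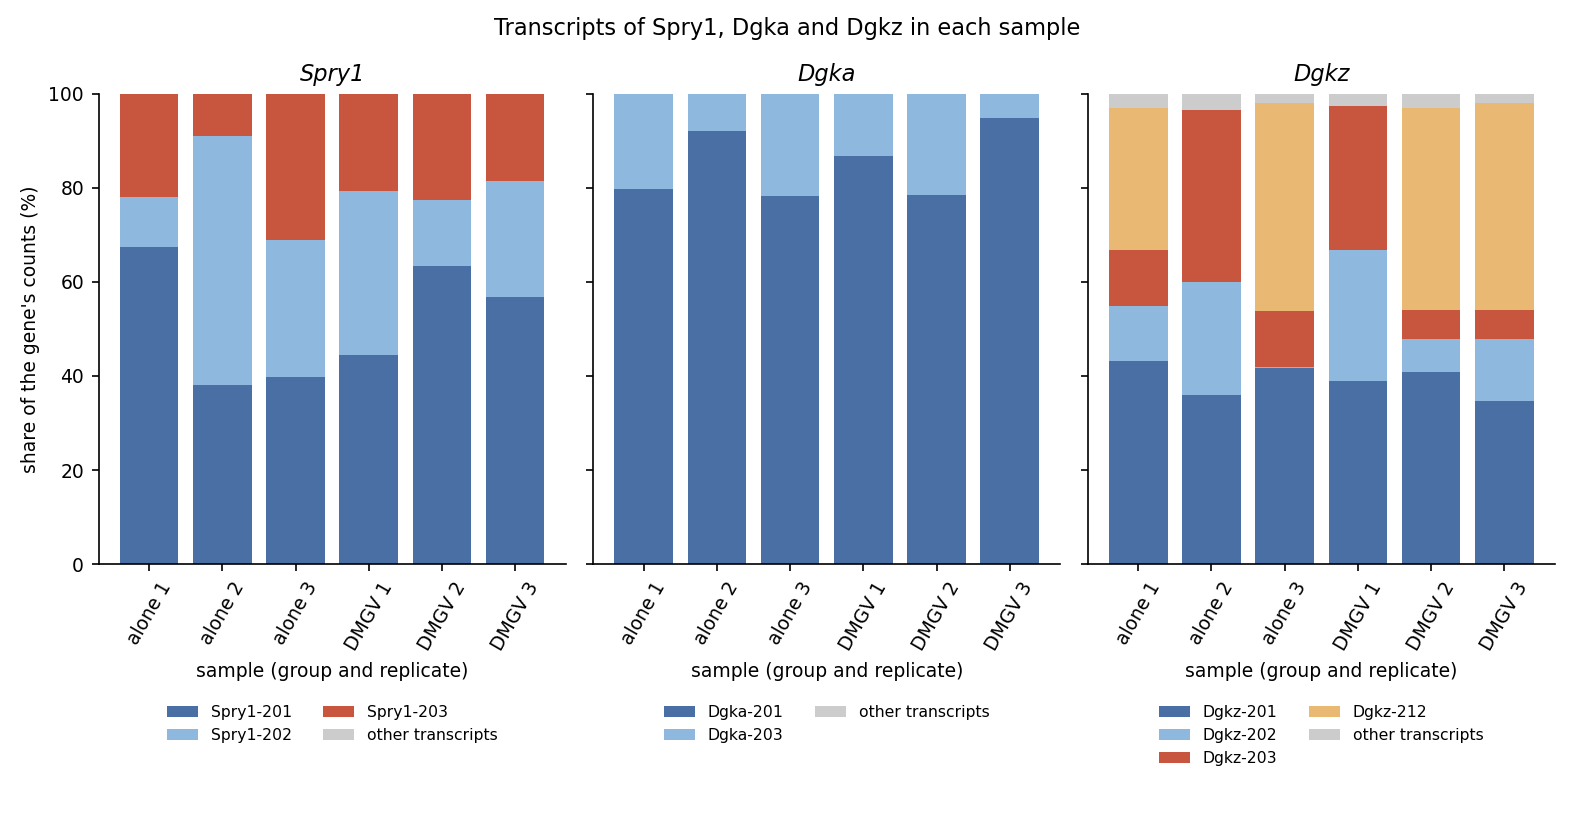
Share of the counts of Spry1, Dgka and Dgkz that each transcript took in each of the 6 samples, as stacked bars that sum to 100%. The shares differ as much between replicates as between groups, and Dgkz-212 is at 0 in TCR alone replicate 2 and TCR+DMGV replicate 1.

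Spry1 had 3 transcripts that start differently and hold one and the same coding sequence. Spry1-201 took 67.5%, 38.1% and 39.7% of the Spry1 counts in TCR alone, against 44.4%, 63.4% and 56.8% with DMGV. Spry1-202 took 10.6%, 53.0% and 29.2% in TCR alone and 34.8%, 14.0% and 24.6% in TCR+DMGV. The shares moved widely between replicates, and the groups overlapped.

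Dgka was made mostly of Dgka-201, which encodes the full protein of 730 codons. Its share was 79.7%, 92.0% and 78.1% in TCR alone and 86.8%, 78.5% and 94.9% in TCR+DMGV. Nearly all of the rest was Dgka-203, which lacks an exon of 89 bases, is annotated as a target of nonsense-mediated decay and has a reading frame of 253 codons. The missing exon, chr10:128731324-128731412, shows in the joined sequences, printed with the bases before the junction in lower case and those after it in capitals.
Dgka-201: tgagctgtaactTCTGTAAGTACA
Dgka-203: tgagctgtaactGTCCAGTCACAC
Dgka-203 was counted 1539, 699 and 1960 times in TCR alone, against 1466, 2136 and 491 times with DMGV. It was lowest in TCR+DMGV replicate 3 and highest in TCR+DMGV replicate 2, so its spread within a group exceeded the difference between the group means. Dgka-201 was counted 6079, 8111 and 7023 times in TCR alone, against 9630, 7842 and 9251 times with DMGV. The groups overlapped for this transcript, although they did not for the gene, and its difference was 0.26 (SE 0.13).

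Dgkz had 13 transcripts, of which 4 were above 10% on average. Dgkz-201, with 929 codons, took 43.2%, 36.0% and 41.7% in TCR alone and 38.8%, 40.8% and 34.8% in TCR+DMGV. The others traded places between samples. Dgkz-212, a transcript of 81 codons annotated for nonsense-mediated decay, was counted 3050, 0 and 5377 times in TCR alone, against 0, 4982 and 4529 times with DMGV. Dgkz-202 (946 codons) and Dgkz-203 (1123 codons) together were counted 2394, 6414 and 1471 times in TCR alone, against 7505, 1535 and 1979 times with DMGV. They were highest in the samples in which Dgkz-212 was listed at 0. The sum of all 3 was far steadier, at 5444, 6414 and 6848 in TCR alone against 7505, 6517 and 6508 with DMGV. The first exon of Dgkz-212 joins the exon which in Dgkz-201 follows exon 4, as the junctions show.
Dgkz-201: cagctggaaaagATCAATTTCCGC
Dgkz-212: tccccagacacaATCAATTTCCGC
Transcript counts are estimates that divide shared reads among forms, and only reads over such differing bases tell the forms apart.

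Between groups, 24 of the 31 transcripts could be tested on the transcript table. None passed an adjusted p of 0.05 with edgeR (0 of 24, against 0% of all transcripts) and 0 of 24 had an unadjusted p under 0.05, against 3.22%. In 3 of 24 the groups lay apart, against 9.25%. These were Spry2-201, Dusp4-201 and Dusp2-202, all higher with DMGV and named after their values were seen. The counts of Dusp4-201 are those of Dusp4, whose groups overlapped with the scaling factors of the gene table and lay narrowly apart with those of the transcript table. A shift in transcript use could be tested in 5 genes with edgeR's diffSpliceDGE test. Of these, 0 of 5 passed, against 1.58% of all genes tested, and 0 of 5 had an unadjusted p under 0.05, against 7.47%. Without the libraries that stood apart, an alternative chosen after the data were seen, 0 transcripts and 0 genes passed as well. The number of all genes past the threshold of diffSpliceDGE was 123, and it was 48 with the replicate number as a block and 350 without those libraries. On simulated counts with known changes, edgeR's transcript test and diffSpliceDGE missed most of them, and most calls of diffSpliceDGE were genes without a change. The simulated spread was drawn for each transcript on its own, whereas forms of Dgkz traded counts between samples. In this the simulation differs from the data. The share of 1.58% is therefore no sound background, and the counts of 0 do not show that transcripts or their use were the same in both groups.

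The other genes of these pathways were read in the same way. From 10 lists of 147 genes, 146 were found and 130 were tested, of which 0 passed the threshold of edgeR's test. DESeq2 called 0 of them as well. An unadjusted p under 0.05 was found in 3, which is 2.31% against 3.19% of all genes. Single libraries changed this count. It was 11 without TCR alone replicate 3 (8.27% against 7.30% of all genes), 6 without TCR+DMGV replicate 3 (4.55% against 2.42%) and 6 without the libraries that stood apart (4.62% against 6.53%). Of the 130 fold changes, 74 were above 0 and 56 below, with a median of 0.02 on the log2 scale. The groups lay apart in 15 genes, 11.5% against 8.86% of all genes.

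**Figure D5:**
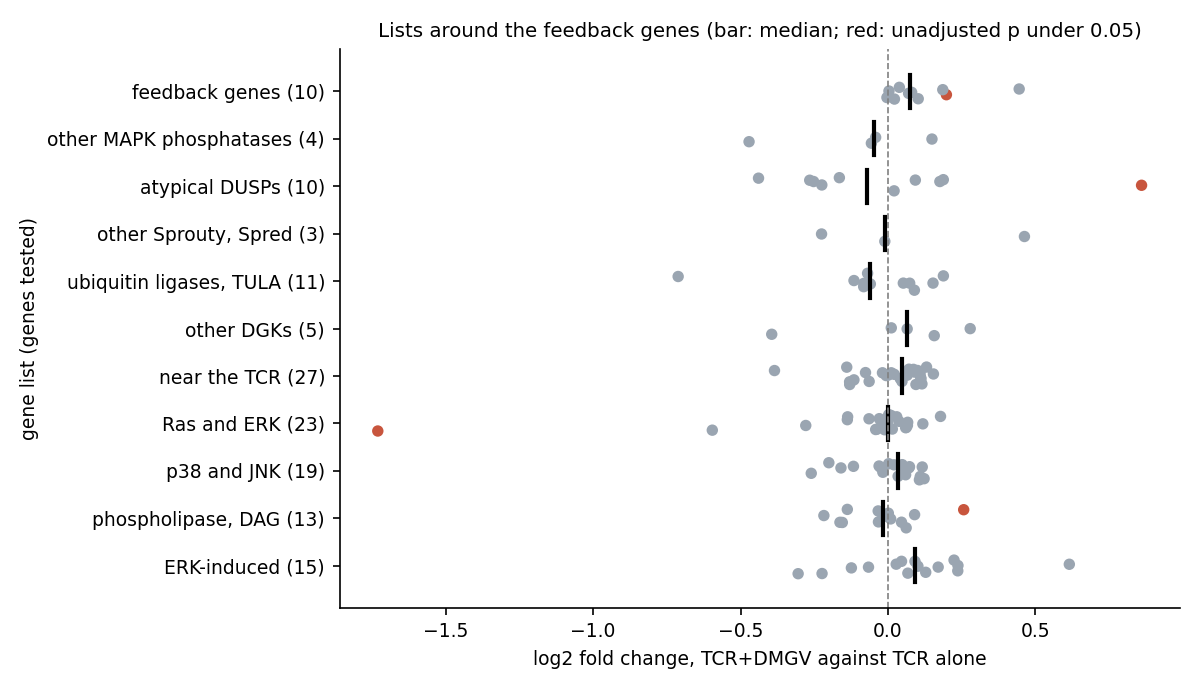
Log2 fold change of every tested gene in the 10 feedback genes and the 10 further lists, 1 point per gene, with the median of each list as a bar, a line at 0 and genes with an unadjusted p under 0.05 in red. The medians of all lists lie between -0.07 and 0.09.

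Among the 4 tested MAPK phosphatases beyond the 5 above, 0 had an unadjusted p under 0.05 and the median was -0.05. Dusp7, an ERK phosphatase, was at 51.9 ± 3.57 CPM in TCR alone against 57.6 ± 5.02 CPM with DMGV (SD, n = 3 each), with overlapping groups. Among the 10 tested atypical phosphatases the median was -0.07. Only Dusp3, which acts on ERK and JNK, had an unadjusted p under 0.05, 1 of 10 against 3.19% of all genes. Dusp3 was barely expressed, at 1.05, 0.980 and 0.821 CPM in TCR alone and 1.53, 2.04 and 1.61 CPM in TCR+DMGV. The groups lay apart, with a difference of 0.86 (SE 0.27, adjusted p = 0.999).

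Of the 3 tested Sprouty and Spred genes beyond the pair above, 0 had an unadjusted p under 0.05, and the median was -0.01. Spred1, a membrane-bound inhibitor of Ras, ranged from 26.4 to 46.5 CPM in TCR alone and from 25.4 to 40.4 CPM in TCR+DMGV. Of the 5 other diacylglycerol kinases tested, 0 had an unadjusted p under 0.05, and their median was 0.07. The most abundant of them, Dgkd, had a mean of 200.9 ± 5.20 CPM in TCR alone against 202.4 ± 8.27 CPM with DMGV.

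The ubiquitin ligases and TULA proteins beyond Cblb had 0 of 11 at an unadjusted p under 0.05 and a median of -0.06. Ubash3b, the phosphatase Sts-1 that acts on receptor-proximal kinases, was at 73.7, 72.4 and 71.3 CPM in TCR alone and at 89.2, 83.0 and 75.5 CPM in TCR+DMGV. These groups lay apart, with a difference of 0.19 (SE 0.09). Ndfip1, an adaptor of Nedd4-family ligases, was at 267 ± 31.8 and 297 ± 20.4 CPM, with overlapping groups.

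Other negative regulators near the receptor had 0 of 27 at an unadjusted p under 0.05, 18 above 0 and a median of 0.05. Cd5, which lowers TCR signals, was at 481, 466 and 478 CPM in TCR alone and at 489.8, 532 and 507 CPM in TCR+DMGV. Ptpn6, the phosphatase SHP-1, was at 319, 366 and 346 CPM in TCR alone and at 370.1, 368 and 389.96 CPM in TCR+DMGV. In both genes the groups lay apart, but neither difference passed (0.10 with SE 0.07 for Cd5 and 0.13 with SE 0.08 for Ptpn6).

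For the pathways that these genes restrain, the mRNA of the Ras and ERK cascade, the p38 and JNK cascades and the diacylglycerol branch was read, which does not measure signalling itself. Ksr2, a scaffold of the ERK cascade, was at 1.03, 1.23 and 1.21 CPM in TCR alone and at 0.404, 0.279 and 0.353 CPM in TCR+DMGV, near the lower limit of what was tested. Its groups lay apart, with a difference of -1.73 (SE 0.35, adjusted p = 0.999). Of the 23 tested genes of this cascade, with a median of -0.00012, Ksr2 alone had an unadjusted p under 0.05, against 3.19% of all genes. Of the 19 tested p38 and JNK genes 0 did, with a median of 0.03, and Mapkapk3, a kinase that p38 activates, was at 111 ± 3.32 CPM against 120.04 ± 3.37 CPM with DMGV, with the groups apart.

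In the diacylglycerol branch 1 of 13 had an unadjusted p under 0.05, against 3.19% of all genes, and the median was -0.02. This was Prkcq, protein kinase C theta, the isoform that diacylglycerol recruits to the synapse. It was at 147, 140.5 and 144 CPM in TCR alone and at 165, 154 and 196 CPM in TCR+DMGV. The groups lay apart, and replicate 3 of TCR+DMGV was well above the others, with a difference of 0.26 (SE 0.10, adjusted p = 0.999). Prkcb, protein kinase C beta, lay apart in the other direction, at 60.7, 59.0 and 69.8 CPM in TCR alone and at 57.1, 58.3 and 54.8 CPM in TCR+DMGV, a difference of -0.15 (SE 0.09).

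The 15 genes that ERK induces had 0 at an unadjusted p under 0.05, 11 above 0 and a median of 0.09. Myc, which drives growth of activated T cells, was at 320.2 ± 14.9 CPM in TCR alone against 336 ± 19.6 CPM with DMGV, with overlapping groups. Ier3, an early response gene, was at 7.93, 7.79 and 7.49 CPM in TCR alone and at 5.82, 6.73 and 6.23 CPM in TCR+DMGV. Its groups lay apart, with a difference of -0.30 (SE 0.13). In this list 2 of 15 genes had groups apart, both lower with DMGV, against 8.86% of all genes apart in either direction. The other was Etv5, a transcription factor named after its values were seen, with a difference of -0.22 (SE 0.14).

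Markers of the cells themselves were read beside these values. All 10 markers of T cells had counts, with Lck the most abundant at a mean of 599.7 CPM, and their summed level was 2714, 2824 and 3161 CPM in TCR alone and 3357, 2942 and 3150.3 CPM in TCR+DMGV. The 9 activation markers summed to 4189, 4154 and 3877 CPM in TCR alone and to 3951, 4111 and 4127 CPM in TCR+DMGV, and Irf4 was the most abundant, at a mean of 1215 CPM. Both sums overlapped between groups. Of the 9 activation markers, 2 had an unadjusted p under 0.05, against 3.19% of all genes. Nr4a1, an immediate-early gene of TCR signalling, was at 215, 208 and 245 CPM in TCR alone and at 302, 268 and 261 CPM in TCR+DMGV, a difference of 0.32. Mki67, a gene of dividing cells, was at 509, 443 and 358 CPM in TCR alone and at 297, 322 and 318 CPM in TCR+DMGV, a difference of -0.48. Both genes had groups that lay apart, and neither passed the threshold over all genes. The part of these markers in the values of the feedback genes was not tested.

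Other cell types left little RNA in these samples. B cell markers summed to 8.48 to 11.7 CPM, with Cd79b the most abundant at a mean of 6.23 CPM. Myeloid markers summed to 8.77 to 11.6 CPM, with Csf1r the most abundant at a mean of 7.79 CPM. Cd68 had 60 to 107 counts a sample, whereas Cd14, S100a8 and S100a9 had no count in any sample. Dendritic cell markers summed to 7.23 to 9.80 CPM. Itgax had 103 to 206 counts a sample and Zbtb46 had 126 to 191, whereas Clec9a and Siglech were at 0. Markers of red cells and platelets summed to 2.11 to 5.37 CPM. The sums of these 4 lists overlapped between groups. Markers of NK cells summed to 54.3, 59.0 and 64.9 CPM in TCR alone and to 74.7, 61.7 and 67.3 CPM in TCR+DMGV, which overlap, nearly all of it Eomes, which activated CD8+ T cells express too. An unadjusted p under 0.05, against 3.19% of all genes, was found in 1 of 5 tested B cell genes (Blk, lower with DMGV), 1 of 4 tested NK cell genes (Klre1, higher) and 1 of 4 tested genes of red cells and platelets (Hba-a2, lower, which can share reads with its near copy Hba-a1, also lower with its groups apart). These 3 genes were at 1.29 CPM or less in every sample. All 4 tested NK cell genes were above 0, with a median of 0.75 on the log2 scale, and the part of these cells in the results was not tested.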

How the data were processed

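RNA of 6 samples was sequenced. The labels give HISAT2 2.0.4 and the build mm9, and the study's methods name SOAPnuke for read filtering and StringTie for expression. The authors deposited counts, whole numbers that are not normalized, and FPKM per gene and per transcript; the step from StringTie to counts is not given in the sources used here, and the summed counts exceed the read depth in the labels, so a count may not be 1 fragment. Identifiers matched GENCODE M21 (GRCm38) for 99.7% of genes without the version and for 93.3% with it, against the build in the labels. Positions and sequences come from that annotation.

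Gene counts were tested with edgeR 4.0.16 in R 4.3.3 (TMM, default low-count filter, quasi-likelihood, two-sided, Benjamini-Hochberg over 14786 genes, threshold 0.05), transcript counts likewise, and transcript use with its diffSpliceDGE test. Log2 CPM used a prior count of 2. Alternatives used DESeq2 1.42.0 and limma 3.58.1, the latter on log2(FPKM + 1) and log2(FPKM + 0.1). The fits were tested on simulated counts, in which the transcript test and the transcript-use test missed most changes and most calls of the latter were false. Python 3.11.15, pandas 2.3.3, SciPy 1.17.1, Biopython 1.88 and matplotlib 3.10.9 served for tables, exact tests, sequences and figures.

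The 10 genes and all lists were chosen with earlier results of these data known. In each further list the 2 genes of smallest p and the 1 of highest FPKM could be named, transcripts from 10% of a gene's counts, and 3 genes of likeness. No pair of samples in a group held the same values (median chi-square per gene 3.89 or more). The p-values measure the spread between samples, for which separate mice are not stated.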

Additional observations from a re-analysis of the deposited data

How the results depend on the processing

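In 17 alternatives none of the 10 genes passed an adjusted p of 0.05, and Dgka (0.15 to 0.23 on the log2 scale), Spry1 (0.12 to 0.25), Spry2 (0.26 to 0.54), Cblb (0.04 to 0.09), Dusp4 (0.04 to 0.15) and Dusp5 (0.02 to 0.12) kept their direction. The unadjusted p of Dgka was over 0.05 with DESeq2, with library size alone, under the replicate block and without the libraries that stood apart, which left 0 genes in each, and also without TCR alone replicate 1, TCR+DMGV replicate 1 or TCR+DMGV replicate 3. With 1 sample left out there were 0 to 1 such genes, and without TCR alone replicate 1 the gene was Spry1 in place of Dgka. The median of the 10 was 0.10 without the libraries that stood apart and 0.055 to 0.12 with 1 sample left out, the highest without TCR alone replicate 3. The cause of these changes was not tested.

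The number of all genes past the threshold, 2 in the main test, was 14 with DESeq2, 1 with library size alone, 1 with every gene that had a count, 0 with each limma setting, 0 under the replicate block, 12 without the libraries that stood apart and 0 to 5 with 1 sample left out. Dusp10 turned to -0.00098 with DESeq2, -0.0023 with DESeq2 size factors, -0.0088 with library size alone, -0.016 with log2(FPKM + 1) under both filters, -0.018 with log2(FPKM + 0.1), -0.0021 under the replicate block and -0.057 without the libraries that stood apart, and ran from -0.099 to 0.064 with 1 sample left out. Dgkz was 0.011 without those libraries. With 1 sample left out, Dgkz ran from -0.049 to 0.057 (without TCR alone replicate 3), Dusp2 from -0.071 (without TCR alone replicate 2) to 0.14 and Dusp6 from -0.021 (without TCR alone replicate 1) to 0.082.

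Same-numbered samples did not all deviate together (correlations -0.154, 0.121 and -0.148). These values show no clear pairing by number, and whether a number stands for a shared mouse or day is not stated. With the replicate block the median of the 10 genes was 0.08, and the unadjusted p of Dgka was over 0.05. In 2 of 6 samples the best correlation was with the same number. Spry2 had 104 to 214 counts a sample, the fewest of the 10 genes, and the widest interval.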
